A study of Mus musculus with 13 samples.

Results

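CD11b cDCs, the conventional dendritic cell (cDC) subset of mouse spleen that carries the CD11b integrin, were compared with each of 5 other leukocyte populations, and the genes with their highest or lowest level in CD11b cDCs were then described. The subset was read on the 2 arrays titled CD11b cDCs, of 13 arrays in all. The other 11 arrays held pDCs (plasmacytoid DCs, 2 arrays), CD8α cDCs (2), NK cells (2), B lymphocytes (3) and CD8 T lymphocytes (2). Every population came from spleens of wild-type C57BL/6 mice. The mice of the DC and NK cell sorts were untreated, and no treatment is named for the others.

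Each DC array held RNA from cells pooled from 10 to 15 mice and each NK cell array from 6 to 10. B cell replicates 1, 2 and 3 came from 3, 2 and 1 mice, and 1 mouse gave each array of CD8 T cells, so the spread between arrays does not mean the same in each group. Ages were given for CD8α cDC replicate 1 and the CD8 T cell arrays (6 to 8 weeks) and for B cell replicates 2 and 3 (6 weeks), and the labels of the CD11b cDC arrays state none. B cell replicates 2 and 3 were described as follicular and replicate 1 simply as B lymphocytes. In the sort, CD11b cDCs were cells without lineage markers, with much CD11c and with CD11b, and with little or none of the BST2 antigen that marks pDCs. The gate can hold other CD11c-rich myeloid cells. CD4+ and CD4- cells of the subset were not parted.

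Dendritic cells take up antigen and show it to T cells. In the spleen, CD11b cDCs depend on factors such as IRF4, RELB and Notch2 signals, carry inhibitory receptors of the SIRP and DCIR families, and are known for presentation on MHC class II to CD4 T cells. CD8α cDCs depend on IRF8 and BATF3 and are known for cross-presentation on MHC class I. pDCs make type I interferon after viral nucleic acids reach their endosomes.

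A signal here is the brightness of 1 probe set on 1 array as scaled by the authors. Signals below 20 were set to 20 before log2 transformation, so a difference against a population at that floor is relative to the floor and understates the true one. A gene counted as highest in CD11b cDCs when its mean exceeded that of every other population by at least 0.4 on the log2 scale and the largest of the 5 one-sided p-values from limma stayed under 0.05 after adjustment. The difference from the nearest other population is called the gap. Lowest genes were found in the same way from below.

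The 2 CD11b cDC arrays correlated at 0.99 (Pearson's r) over the 9391 genes tested, and 92 genes differed by more than 2-fold between them. The other populations gave 0.93 to 0.99, the lowest being B cells. On each array 49.1 to 58.3% of the probe sets read below 20. CD11b cDC replicate 1 was scanned on a day of its own, whereas replicate 2 shared its day with the pDC and CD8α cDC arrays. All DC arrays shared a chip lot. No scan day or chip lot held both DC and lymphocyte arrays, so for NK, B and CD8 T cells these cannot be told apart from the population. GAPDH probe sets, which report RNA integrity, gave 3' to 5' signal ratios of 3.97 and 3.49 on the CD11b cDC arrays, 23.9 and 11.2 on the NK cell arrays and at most 6.30 elsewhere. All DC arrays carried Xist, the transcript of the inactive X chromosome, as did B cell replicate 2, which is labelled male. The CD8 T cell arrays are labelled female but carried the Y-linked Eif2s3y at 689.9 and 968 with Xist below 1. Eif2s3y was also at 384 and 346 on the NK cell arrays and at 649 and 605 on B cell replicates 1 and 3, with Xist at most 1.05. For NK and CD8 T cells, sex by these transcripts therefore cannot be told apart from the population. The labels state that the probe was made from 100 ng of RNA for every array. The comments kept with the arrays differ, with 89 ng for pDC replicate 2 and 50 ng for B cell replicates 2 and 3. They give no amount for the CD8 T cell arrays and 100 ng for the rest.

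Of the 3 markers given for the subset, only Clec4a2 was highest in CD11b cDCs. This gene, encoding the inhibitory lectin DCIR, had signals of 1222 and 1253 on the CD11b cDC arrays and of 0.56 to 50.9 (median 6.90) on the 11 others, with no overlap. Sirpa, which encodes an inhibitory receptor for CD47, stood at 1516 and 1317 in CD11b cDCs, 731 and 660.0 in pDCs and 30.05 and 41.8 in CD8α cDCs. It was higher than in CD8α cDCs (log2 difference 5.32, SE 0.27, adjusted p = 1.8e-07 from limma) and by 1.02 than in pDCs (SE 0.27, adjusted p = 0.0137), and it did not count as highest (adjusted p = 0.0671), although it did without B cell replicate 1 (adjusted p = 0.00461). Without CD11b cDC replicate 1 or pDC replicate 2 the difference from pDCs was not called (adjusted p = 0.0927 and 0.086).

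Cd209a, a lectin related to DC-SIGN, reached 511 and 729 in CD11b cDCs and 818 and 570.1 in pDCs, values that overlap, against 21.04 and 16.6 in CD8α cDCs. It was higher than in CD8α cDCs (log2 difference 4.90, SE 0.21, adjusted p = 5.08e-08), and the difference from pDCs was not called (log2 difference -0.16, SE 0.21, adjusted p = 0.625). Itgam, the CD11b chain used in the sort, gave 158 and 174 in CD11b cDCs, which overlapped the NK cells at 135 and 162. Cd8a, the antigen of the other cDC subset, was at 4.12 and 0.58 on the CD11b cDC arrays and Siglech, the lectin of pDCs, at 1.80 and 2.60, all below the floor.

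By the number of genes called, CD11b cDCs were nearest to CD8α cDCs and farthest from CD8 T cells. Of 9391 genes tested, 989 were higher in CD11b cDCs than in CD8α cDCs (10.5%) and 843 were lower (8.98%). Against pDCs the counts were 1450 (15.4%) and 1346 (14.3%). Against the lymphocytes they were 1982 higher (21.1%) and 2183 lower (23.2%) for NK cells, 2130 (22.7%) and 1946 (20.7%) for B cells, and 2384 (25.4%) and 2144 (22.8%) for CD8 T cells. These percentages are the background for the lists below, and the 5 comparisons share the CD11b cDC arrays. Differences of at least 8-fold were found upward for 120 genes against CD8α cDCs, 186 against pDCs, 345 against NK cells, 303 against B cells and 389 against CD8 T cells, and downward for 75, 165, 233, 124 and 205. With the CD11b cDC array of the other DC arrays' scan day alone, 638 genes were higher and 482 lower than in CD8α cDCs, and 1095 were higher and 956 lower than in pDCs. Without either CD8α cDC array the counts against CD8α cDCs also fell, to 631 and 476 without replicate 2 and to 547 lower genes without replicate 1, as they did without CD11b cDC replicate 2 (618 and 533). The genes lower than in B cells numbered 1249 and 1274 without CD11b cDC replicate 1 or 2.

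**Figure D1:**
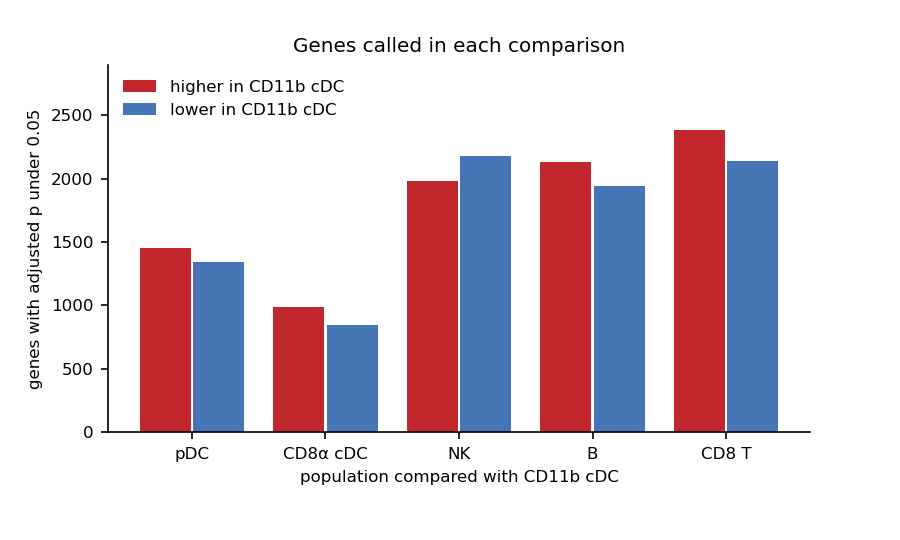
Genes called higher (red) and lower (blue) in CD11b cDCs than in each of the other populations, as bars of the number of genes with an adjusted p under 0.05 from limma, of 9391 tested. The pair of bars against CD8α cDCs (989 and 843) is the shortest and that against CD8 T cells (2384 and 2144) the tallest.

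In CD11b cDCs 198 genes were highest, 2.11% of those tested, and 6 were lowest, 0.0639%. The same rule gave 339 highest genes for pDCs, 275 for CD8α cDCs, 368 for NK cells, 134 for B cells and 229 for CD8 T cells, and 50, 67, 80, 95 and 104 lowest. For each of the 198 genes, both CD11b cDC arrays lay above all 11 other arrays, as they did for 617 genes (6.57%) without the test. The gap had a median of 1.83 and reached 5.60. It was at least 1 for 179 genes, 2 for 80 and 3 for 32. CD8α cDCs held the next highest mean for 91 of the 198, pDCs for 48, NK cells for 26, B cells for 20 and CD8 T cells for 13. In 35 genes the means of all 5 other populations were below the floor. The share of 2.11% is the background for the highest members of the lists below. The filter asked for at least 50 in all replicates of a population. Genes that met it only in CD11b cDCs were tested because they are high there. List counts and medians below are therefore not independent of the filter. Without the floor 40 genes were highest, all among the 198. Without CD11b cDC replicate 1 the number was 148 and without replicate 2 it was 140, again all among the 198. Without the NK cell arrays it was 225, and without the 3 arrays that go against their sex labels it was 185.

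The genes with the largest gaps encode, among others, myeloid surface receptors and proteins of prostaglandin synthesis and sensing. Sirpb1a, an activating SIRP receptor, led with 1185 and 1438 on the CD11b cDC arrays and 0.72 to 29.2 (median 7.85) on the others (gap 5.60, SE 0.16, adjusted p = 7.25e-09). It has near-identical copies, Sirpb1b and Sirpb1c, and its probe set may read these too. Clec4a3, a lectin of the DCIR family, was at 1084 and 1472 against 2.01 to 32.4 (median 12.4, gap 5.49, SE 0.19, adjusted p = 3.34e-08). Clec4a2, given above, had a gap of 5.10 (adjusted p = 4.06e-07). In all 3 genes the CD11b cDC arrays stood far above every other array.

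Ptgs2 encodes cyclooxygenase-2, which starts prostaglandin synthesis, and Ptger3 encodes EP3, a receptor for prostaglandin E2. Ptgs2 was at 1466 and 987 in CD11b cDCs and at 0.49 to 42.7 (median 5.86) elsewhere (gap 5.19, SE 0.34, adjusted p = 2.44e-06). Ptger3 was at 843 and 733 in CD11b cDCs and below the floor on all 11 other arrays, which gave 0.84 to 14.9 (median 10.3, gap 5.30, SE 0.13, adjusted p = 7.25e-09). Tgm2, transglutaminase 2, which cross-links proteins, was at 5903 and 5776, with 202 and 274 in CD8α cDCs and 97.6 and 122 in pDCs (gap 4.63, SE 0.27, adjusted p = 1.29e-06). Mmp12, the macrophage elastase, was at 468 and 586 against 1.28 to 26.9 (median 4.79, gap 4.50, SE 0.18, adjusted p = 6.34e-08).

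Adgre1 encodes F4/80, an adhesion receptor best known on red pulp macrophages. It was at 1299.8 and 1505 in CD11b cDCs, and the next values were the B cells at 58.2, 64.4 and 65.5 (gap 4.48, SE 0.18, adjusted p = 6.34e-08). Its relative Adgre4 was at 423 and 561 against 0.92 to 52.9 (median 15.2, gap 3.69, SE 0.27, adjusted p = 5.56e-06). Clec4n, the fungal receptor dectin-2, was at 343 and 442 against 3.28 to 33.2 (median 15.6, gap 3.86, SE 0.23, adjusted p = 1.27e-06). Of the remaining genes among the 20 largest gaps, Pram1 (gap 4.63) is an adaptor of myeloid signalling, Ryr3 (4.59) a calcium release channel, Ube2e2 (4.17) a ubiquitin-conjugating enzyme, Ifitm1 (4.17) an interferon-inducible membrane protein and Pygl (4.00) a glycogen phosphorylase. Mcemp1 (3.99) and Cdcp1 (3.72) are membrane proteins, S100a4 (3.85) binds calcium, Npl (3.68) breaks down sialic acid and Cyp4f16 (3.67) is a cytochrome P450. In each of these genes the lowest CD11b cDC array lay above the highest other array. S100a4 was also present elsewhere, at 5413 and 5799 against 21.4 to 458 (median 216).

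**Figure D2:**
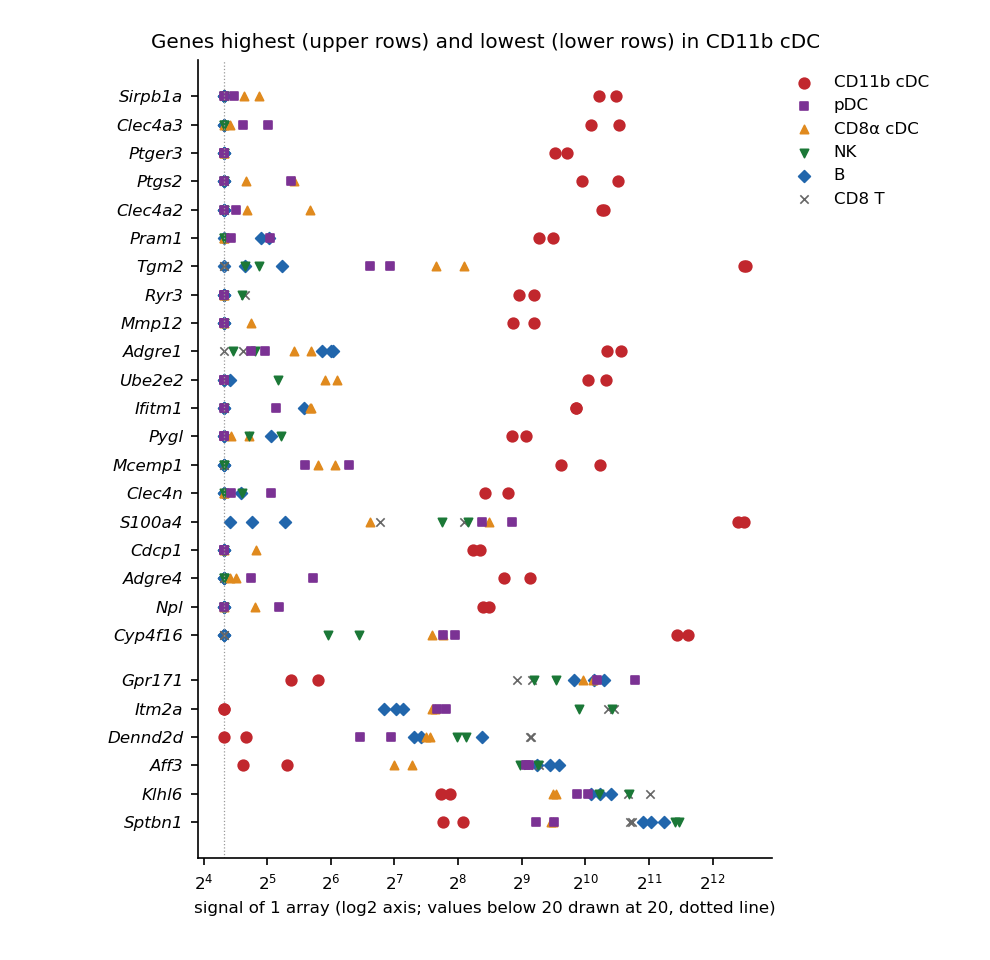
Signals of the 20 genes with the largest gaps among those highest in CD11b cDCs (upper rows) and of the 6 lowest genes (lower rows), on a log2 axis with 1 point for each array and values below 20 drawn at 20. The red CD11b cDC points stand right of all others in the upper rows, by 5.60 (log2) for Sirpb1a, and left of all others in the lower rows.

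The promoters of the highest genes were searched for 3 short motifs of factors known in this lineage. RefSeq promoters (GRCm38.p6), each of 250 bases before and 50 after a gene start, were at hand for 154 of the 198 genes, 203 in all. On either strand, GAGGAAGT, a site of the myeloid factor PU.1, was present in 8.37% of them, in 3.41% of the promoters of all genes tested and in 3.2% of all promoters. GGAANNGAA, an ETS-IRF composite read by PU.1 with IRF4 or IRF8, was in 10.3%, 7.57% and 8.24%. GAAANNGAA, the core of an interferon response element, was in 11.8%, 7.27% and 8.56%. The first motif can run into the second, since both may use the same GGAA. In all, 52 of the 154 genes held at least 1 match. These shares are a description of letters in a window and say nothing of binding. The 100 bases before the start are shown for 6 of the genes, chosen because a match lies within them, in lower case with the match in capitals.

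Mmp12 (the protease, chr9:7344297-7344396, plus strand): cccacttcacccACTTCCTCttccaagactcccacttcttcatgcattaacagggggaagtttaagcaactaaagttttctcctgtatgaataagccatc

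Cyp4f16 (the cytochrome P450, chr17:32536457-32536556, plus strand): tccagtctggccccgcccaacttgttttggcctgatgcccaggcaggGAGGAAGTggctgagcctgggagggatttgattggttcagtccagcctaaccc

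Clec7a (dectin-1, chr6:129472780-129472879, minus strand): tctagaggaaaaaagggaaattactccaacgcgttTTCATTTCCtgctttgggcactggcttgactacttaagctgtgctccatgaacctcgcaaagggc

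Fcgr4 (an Fc receptor, chr1:171018826-171018925, plus strand): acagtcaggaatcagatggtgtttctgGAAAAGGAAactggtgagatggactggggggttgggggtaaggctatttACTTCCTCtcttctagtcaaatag

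Cd274 (PD-L1, chr19:29367338-29367437, plus strand): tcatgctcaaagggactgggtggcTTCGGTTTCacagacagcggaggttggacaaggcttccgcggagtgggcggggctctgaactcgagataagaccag

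Clec4b1 (a lectin beside the DCIR genes, chr6:123049862-123049961, plus strand): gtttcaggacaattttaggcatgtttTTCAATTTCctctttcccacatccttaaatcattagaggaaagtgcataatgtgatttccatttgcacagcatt

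Mmp12 and Cyp4f16 show the PU.1 letters, Clec7a the composite, Cd274 and Clec4b1 the interferon core, and Fcgr4 the interferon core followed by the PU.1 letters. Sirpb1a, the gene with the largest gap, held an interferon core at -227 from the gene start. No match was found for Clec4a2, Clec4a3, Ptger3 or Ptgs2, which also had large gaps.

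The paired receptors, which tune myeloid activation through inhibitory or activating partners, held 10 highest genes, the most of any list drawn up by function. Of 37 listed genes 25 were tested, and the 10 compare with 2.11% of all genes. Sirpb1a, Clec4a2, Clec4a3, Fcgr4 and Clec4b1 passed the filter only through CD11b cDCs, as did Pilrb1, Cd300lb and Cd300ld, described below. The list was also drawn up with earlier results of these data known. Its number of highest genes and its medians are therefore not independent of the filter or of the choice of genes. Higher and lower members numbered 16 and 3 against pDCs, 20 and 2 against CD8α cDCs, 18 and 3 against NK cells, 21 and 1 against B cells and 23 and 1 against CD8 T cells. The list medians were 1.18, 2.36, 3.07, 4.46 and 5.41 in the same order, whereas those of all genes tested were 0.00, 0.00, -0.04, -0.02 and 0.00.

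Beside Sirpb1a, Clec4a2 and Clec4a3, the highest members were Pilrb1, an activating receptor of the PILR pair, at 284 and 324 against 12.8 to 28.5 (median 21.5, gap 3.64, SE 0.23, adjusted p = 2.03e-06), and 3 CD300 receptors. Cd300lb was at 201 and 274 against 2.68 to 36.9 (median 13.3, gap 2.84, SE 0.25, adjusted p = 2.79e-05) and Cd300ld at 185 and 198 against 6.07 to 37.1 (median 21.7, gap 2.81, SE 0.26, adjusted p = 3.91e-05). Cd300a, an inhibitory member that binds lipids of dying cells, was at 1442 and 1493, with 706 and 733 in pDCs (gap 1.03, SE 0.25, adjusted p = 0.0447). The call of Cd300a was lost without CD11b cDC replicates 1 or 2, pDC replicates 1 or 2, NK cell replicates 1 or 2, B cell replicates 2 or 3 or CD8 T cell replicates 1 or 2 (adjusted p between 0.0522 and 0.287). Its relatives Cd300lf and Cd300c2 were not highest (gaps 0.25 and 0.93).

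Fcgr4, an activating Fc receptor for IgG, was at 126 and 180.0 against 1.93 to 43.2 (median 15.3, gap 1.83, SE 0.18, adjusted p = 4.82e-05). Igsf6, an immunoglobulin superfamily receptor, was at 1020.1 and 927, above the 300.5 and 317 of CD8α cDCs (gap 1.66, SE 0.16, adjusted p = 6.15e-05). Clec4b1 was at 65.6 and 97.2 against 0.73 to 21.9 (median 7.23, gap 1.93, SE 0.18, adjusted p = 4.56e-05). The signalling adaptors were shared with other cells. Tyrobp, which encodes DAP12, was at 5822 and 5417 in CD11b cDCs, 7833 and 6758 in pDCs and 8649 and 8727 in NK cells. Fcer1g, the Fc receptor gamma chain, was at 2813 and 3281 in CD11b cDCs and at 135 and 162 in CD8α cDCs (log2 difference 4.36, SE 0.18, adjusted p = 4.82e-08). Klra17, an inhibitory Ly49 receptor, and Lair1, an inhibitory collagen receptor, were lower in CD11b cDCs than in pDCs. Klra17 differed by -4.52 on the log2 scale (SE 0.17, adjusted p = 1.28e-08) and Lair1 by -1.82 (SE 0.29, adjusted p = 0.000673).

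**Figure D3:**
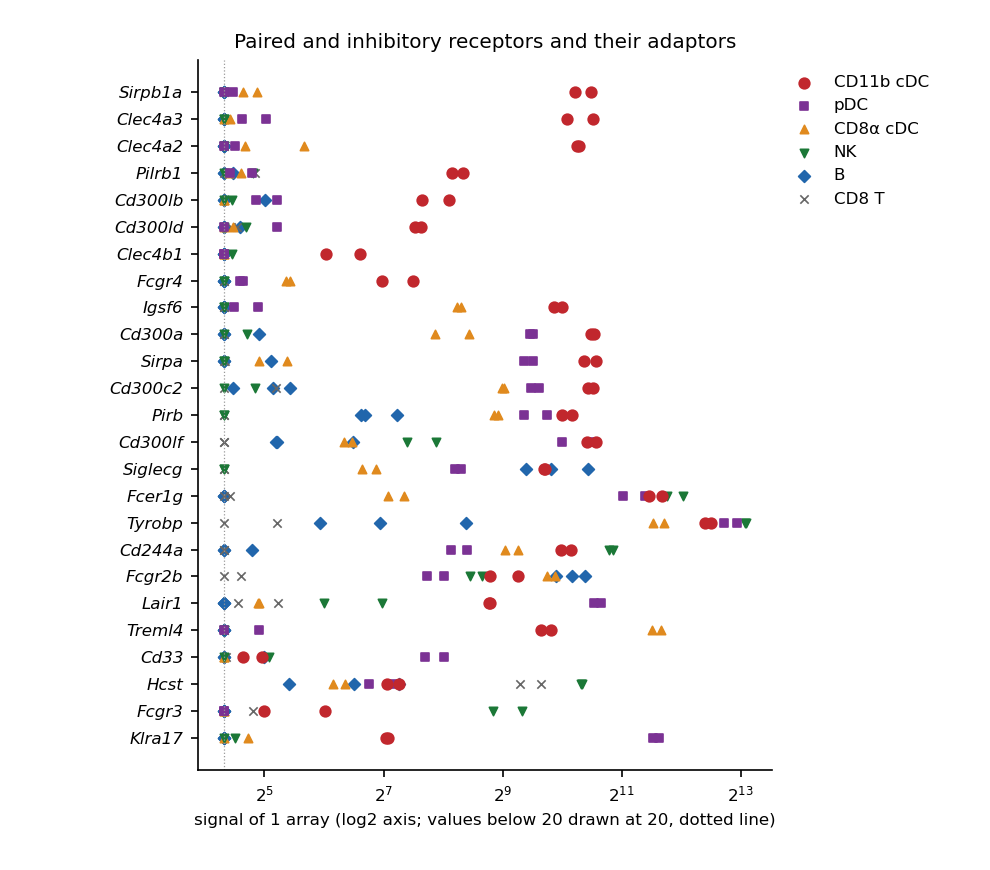
Signals of the 25 paired receptors and adaptors tested, ordered by gap, on a log2 axis with 1 point for each array and values below 20 drawn at 20. Sirpb1a, Clec4a3 and Clec4a2 at the top have the widest space between CD11b cDCs and all other arrays, and Klra17 at the foot is highest in pDCs.

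Among lectins and scavenger receptors that take up antigen, 4 of 14 tested (26 listed) were highest in CD11b cDCs, beside 2.11% of all genes. Clec4n and Lrp1 passed the filter only through CD11b cDCs. Clec7a, the beta-glucan receptor dectin-1, was at 1281 and 1738 against 0.93 to 233 (median 21.7, gap 3.37, SE 0.41, adjusted p = 0.000335) and Clec4n, dectin-2, is given above. Cd302, a C-type lectin of phagocytes, was at 209 and 271 with 58.3 and 91.4 in CD8α cDCs (gap 1.70, SE 0.30, adjusted p = 0.00529), and Lrp1, a broad scavenger receptor, was at 83.7 and 123 against 0.79 to 36.95 (median 9.83, gap 1.55, SE 0.25, adjusted p = 0.00342). The call of Cd302 was lost without CD8α cDC replicate 1 or CD11b cDC replicate 2 (adjusted p between 0.0766 and 0.0894). The call of Lrp1 was lost without CD11b cDC replicate 2 (adjusted p = 0.0568). Cd36, a scavenger receptor of cross-presenting cells, was at 29.4 and 33.3 in CD11b cDCs and 1217 and 1086 in CD8α cDCs (log2 difference -5.20, SE 0.77, adjusted p = 0.000619). Cd207, or langerin, was at 5.75 and 1.96 in CD11b cDCs and 391 and 323 in CD8α cDCs. Ly75, which encodes DEC-205, was lower than in CD8α cDCs (log2 difference -2.39, SE 0.36, adjusted p = 0.000641). Cd209d, Cd209e and Clec10a, whose pDC arrays read 960.3 and 818, 263 and 258, and 2848 and 2250.1, were at most 126 on a CD11b cDC array. Over the list, higher and lower members numbered 4 and 5 against pDCs, 6 and 4 against CD8α cDCs, 8 and 1 against NK cells, 8 and 0 against B cells and 8 and 1 against CD8 T cells.

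Toll-like receptors sense microbes at the surface or in endosomes. Of 20 members tested, counting their adaptors, Tlr5 and Tlr6 were highest in CD11b cDCs, beside 2.11% of all genes. Tlr5 passed the filter only through CD11b cDCs. Tlr5, the flagellin receptor, was at 108 and 103 against 1.39 to 47.6 (median 14.8, gap 1.45, SE 0.20, adjusted p = 0.000792), and Tlr6, a partner of TLR2 for lipopeptides, at 168 and 167 against 28.6 to 89.7 (median 46.3, gap 1.41, SE 0.29, adjusted p = 0.016). The call of Tlr6 was lost without CD8α cDC replicate 2, CD11b cDC replicates 1 or 2, B cell replicates 2 or 3 or CD8 T cell replicate 1 (adjusted p between 0.0572 and 0.195). Tlr1, the other partner of TLR2, was at 966 and 946 in CD11b cDCs, 27.1 and 51.6 in CD8α cDCs and 1065, 439.5 and 469.7 in B cells, so that it was higher than in CD8α cDCs (log2 difference 4.68, SE 0.41, adjusted p = 1.17e-05) without being highest. Tlr13, an endosomal sensor of bacterial RNA, was at 367 and 449 in CD11b cDCs and 305 and 372 in CD8α cDCs, and at most 26.2 elsewhere. Tlr7, the sensor of single-stranded RNA, was higher than in CD8α cDCs (log2 difference 3.81, SE 0.57, adjusted p = 0.000664), and its difference from pDCs was not called (-1.29, adjusted p = 0.119) except without B cell replicate 3 (adjusted p = 0.00163) or with the DC arrays alone (adjusted p = 0.00763). Tlr3, the sensor of double-stranded RNA, was at 137 and 137 in CD11b cDCs and 1762 and 1727 in CD8α cDCs (log2 difference -3.67, SE 0.43, adjusted p = 0.000104). Tlr12 was at 12.97 and 3.43 in CD11b cDCs and 346 and 302 in CD8α cDCs (log2 difference -4.01, SE 0.35, adjusted p = 1.24e-05).

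Of 17 cytosolic sensors and inflammasome genes tested, 0 were highest by the rule (limma), 5 with the unadjusted p, and 8 had their largest mean in CD11b cDCs. Ifih1, which encodes the RNA sensor MDA5, came nearest, at 1473 and 1623 against 32.8 to 588 (median 299, gap 1.59, SE 0.40, adjusted p = 0.052), and its difference from each other population was called (adjusted p between 2.18e-06 and 0.0164). It was highest with any 1 of the B cell arrays left out (adjusted p between 0.000983 and 0.0468). Il1b, the inflammasome substrate, was at 2765 and 3454 in CD11b cDCs and 1574 and 1482 in CD8α cDCs (log2 difference 1.02, SE 0.45, adjusted p = 0.152, not called), with at most 115 on any other array. Without B cell replicate 1 or with the DC arrays alone that difference of Il1b was called (adjusted p = 0.0152 and 0.0288). Higher and lower members numbered 8 and 0 against pDCs, 6 and 0 against CD8α cDCs, 6 and 2 against NK cells, 12 and 1 against B cells and 13 and 1 against CD8 T cells.

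Ligands that pass activating or inhibitory signals to T cells included 3 highest genes of 19 tested, beside 2.11% of all genes. Cd274 and Pdcd1lg2 encode PD-L1 and PD-L2, which bind the inhibitory receptor PD-1. Cd274 was at 779 and 749 in CD11b cDCs and 74.7 to 241 (median 97.8) elsewhere (gap 1.99, SE 0.25, adjusted p = 0.000466). Pdcd1lg2 was at 169.5 and 189 against 0.94 to 102 (median 31.6, gap 1.69, SE 0.41, adjusted p = 0.0467). Cd80, a ligand of CD28 and CTLA-4, was at 172 and 155 with 115 and 96.9 in CD8α cDCs (gap 0.63, SE 0.15, adjusted p = 0.0374). The call of Pdcd1lg2 was lost without CD8α cDC replicates 1 or 2, CD11b cDC replicates 1 or 2, pDC replicates 1 or 2, NK cell replicates 1 or 2, B cell replicates 2 or 3 or CD8 T cell replicates 1 or 2 (adjusted p between 0.0601 and 0.413). The call of Cd80 was lost without CD8α cDC replicate 2, CD11b cDC replicates 1 or 2 or B cell replicates 2 or 3 (adjusted p between 0.0576 and 0.282). Cd86, which binds the same receptors, was lower, at 513 and 488 in CD11b cDCs against 1955 and 1963 in CD8α cDCs (log2 difference -1.97, SE 0.54, adjusted p = 0.0271), as was Btla, an inhibitory receptor (log2 difference -2.29, SE 0.24, adjusted p = 5.39e-05). This difference of Cd86 was not called without CD8α cDC replicates 1 or 2, CD11b cDC replicates 1 or 2, pDC replicates 1 or 2 or NK cell replicates 1 or 2 (adjusted p between 0.0524 and 0.134). Cd83, which rises when DCs mature, was at 4619 and 4237 in CD11b cDCs, 5291 and 4288 in CD8α cDCs and 4682, 4553 and 3909 in B cells, values that overlap. Over the list, higher and lower members numbered 11 and 1 against pDCs, 7 and 5 against CD8α cDCs, 11 and 2 against NK cells, 11 and 3 against B cells and 12 and 3 against CD8 T cells.

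Of 30 cytokine and growth factor receptors tested, Csf1r, Csf3r and Il1rn, the soluble antagonist of the IL-1 receptor, were highest, beside 2.11% of all genes. Csf3r and Il1rn passed the filter only through CD11b cDCs. Csf1r, the receptor that maintains macrophages and monocytes, was at 3187 and 3473 in CD11b cDCs, 563 and 727 in pDCs and 247 and 349 in CD8α cDCs (gap 2.38, SE 0.48, adjusted p = 0.0149). Csf3r, the G-CSF receptor, was at 71.9 and 78.3 against 3.92 to 35.5 (median 24.7, gap 1.42, SE 0.29, adjusted p = 0.015), and Il1rn at 80.7 and 105 against 1.29 to 40.7 (median 6.35, gap 1.69, SE 0.28, adjusted p = 0.00331). The call of Csf1r was lost without CD11b cDC replicates 1 or 2 or pDC replicates 1 or 2 (adjusted p between 0.0863 and 0.173). The call of Csf3r was lost without CD8α cDC replicate 2, CD11b cDC replicates 1 or 2, pDC replicate 2 or CD8 T cell replicate 2 (adjusted p between 0.0662 and 0.164). The call of Il1rn was lost without CD11b cDC replicate 2 (adjusted p = 0.061). Flt3, the receptor that drives DC development, was shared by the 3 DC subsets, at 1057 and 1169 in CD11b cDCs, 996 and 1007 in pDCs and 1724 and 1702 in CD8α cDCs. Kit, the stem cell factor receptor, was at 876 and 821 in CD11b cDCs and 543 and 523 in CD8α cDCs (log2 difference 0.67, SE 0.20, adjusted p = 0.035). This difference of Kit was not called without CD8α cDC replicates 1 or 2 or CD11b cDC replicates 1 or 2 (adjusted p between 0.102 and 0.158). Lifr, a subunit of the LIF receptor, was lower than in pDCs (-4.53, SE 0.18, adjusted p = 1.76e-08), as was Csf2rb2, a receptor chain for IL-3 (-3.13, SE 0.19, adjusted p = 3.57e-07).

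Beside 2.11% of all genes, 1 of 29 transcription factors of DC lineages tested was highest in CD11b cDCs, which was Relb. It encodes an NF-κB subunit needed for this subset and was at 1730.3 and 1675 against 97.4 to 592 (median 221, gap 2.12, SE 0.37, adjusted p = 0.00505). The call of Relb was lost without CD11b cDC replicates 1 or 2 (adjusted p between 0.0708 and 0.0766). Irf4 was at 513 and 558 in CD11b cDCs and 9.24 and 33.1 in CD8α cDCs (log2 difference 4.38, SE 0.33, adjusted p = 3.53e-06), with 1030.5, 1651 and 1568 in B cells. Irf8 was lower, at 708 and 747 in CD11b cDCs against 9575 and 9918 in CD8α cDCs (log2 difference -3.74, SE 0.14, adjusted p = 2.69e-08) and 10515 and 9727 in pDCs. Batf3, the factor that CD8α cDCs need, was at 1115 and 1277 in CD11b cDCs and 1546 and 1579 in CD8α cDCs (log2 difference -0.39, SE 0.24, adjusted p = 0.316, not called), and at most 62.7 elsewhere. Id2, an inhibitor of E proteins, was higher than in pDCs (4.12, SE 0.34, adjusted p = 4.08e-06) and lower than in CD8α cDCs (log2 difference -1.41, SE 0.34, adjusted p = 0.0131). The difference of Id2 from CD8α cDCs was not called without CD8α cDC replicates 1 or 2 or CD11b cDC replicates 1 or 2 (adjusted p between 0.0567 and 0.0981). Tcf4, the E protein of pDCs, was lower than in pDCs (-3.82, SE 0.18, adjusted p = 6.67e-08). Klf4, a factor of myeloid cells, was at 2439.8 and 1298 in CD11b cDCs (gap -0.28) and Zbtb46, a factor of cDCs, at 274 and 253 (gap -0.04). Neither was highest.

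Eicosanoids are lipid mediators made from arachidonic acid, such as prostaglandins and leukotrienes. Of 9 genes tested in a list for eicosanoids and related lipid mediators (16 listed), 5 were highest in CD11b cDCs, beside 2.11% of all genes. The list medians were 2.23, 1.51, 3.67, 3.37 and 3.67 against pDCs, CD8α cDCs, NK, B and CD8 T cells. Beside Ptgs2 and Cyp4f16, the highest members were Pla2g7, Pla2g4a, which frees arachidonic acid, and Hpgd, which inactivates prostaglandins. Pla2g7 is a phospholipase that degrades platelet-activating factor, a lipid mediator that is not an eicosanoid. Ptgs2 and Pla2g7 passed the filter only through CD11b cDCs. Pla2g7 was at 239 and 272 against 0.52 to 42.1 (median 2.39, gap 3.32, SE 0.28, adjusted p = 1.67e-05). Pla2g4a was at 231 and 186 with 79.7 and 66.6 in CD8α cDCs (gap 1.51, SE 0.22, adjusted p = 0.0016), and Hpgd at 379 and 584 with 166 and 206 (gap 1.35, SE 0.20, adjusted p = 0.00174). Tbxas1, thromboxane synthase, was lower than in CD8α cDCs (log2 difference -2.67, SE 0.37, adjusted p = 0.000368), and Alox5ap, which serves leukotriene synthesis, was at 4529.6 and 4104 and not highest (gap -0.19). Among receptors for metabolites and lipids, 5 of 20 tested were highest, beside 2.11% of all genes. Ptger3, Sucnr1 and Ltb4r1 passed the filter only through CD11b cDCs. Ptger3 is given above. Sucnr1, the succinate receptor, was at 204 and 204 and below the floor on all other arrays, which gave 0.52 to 18.8 (median 5.29, gap 3.35, SE 0.12, adjusted p = 6.34e-08), and Ltb4r1, the leukotriene B4 receptor, at 69.9 and 95.5 against 0.95 to 12.4 (median 2.08, gap 2.03, SE 0.15, adjusted p = 1.49e-05). Gpr35, a receptor for tryptophan metabolites, was at 729 and 708 against 1.09 to 503 (median 19.6) with a gap of 0.58 (adjusted p = 0.044). The call of Gpr35 was lost without CD8α cDC replicates 1 or 2, CD11b cDC replicates 1 or 2, pDC replicate 2, B cell replicates 2 or 3 or CD8 T cell replicate 2 (adjusted p between 0.0504 and 0.272). Ffar2, the receptor for short-chain fatty acids, had a larger gap of 2.72, at 4232 and 4773 against 1.27 to 723 (median 14.8), but was not highest by the test (adjusted p = 0.22) except without B cell replicate 1 (adjusted p = 0.000454).

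Of 21 cytokines and chemokines tested 1 was highest and of 18 chemoattractant receptors 2, beside 2.11% of all genes. The highest members, Ccl9, Ackr1 and Fpr2, passed the filter only through CD11b cDCs. Cytokines and chemokines higher and lower in CD11b cDCs numbered 14 and 1 against pDCs, 6 and 5 against CD8α cDCs, 12 and 3 against NK cells, 15 and 2 against B cells and 15 and 0 against CD8 T cells, and chemoattractant receptors 5 and 5 against pDCs, 7 and 4 against CD8α cDCs, 6 and 7 against NK cells, 5 and 6 against B cells and 5 and 8 against CD8 T cells. The highest cytokine gene was Ccl9, a CC chemokine of myeloid cells, at 268 and 526 against 9.62 to 57.8 (median 18.9, gap 3.23, SE 0.35, adjusted p = 0.000122). Tnf was at 664 and 532 in CD11b cDCs and 315 and 255 in CD8α cDCs, above all other arrays, without passing the test (gap 1.07, adjusted p = 0.604). Ccl5, a chemokine of T and NK cells, was higher than in CD8α cDCs (2.98, SE 0.49, adjusted p = 0.00128) and pDCs (6.11, SE 0.49, adjusted p = 3.62e-06) and lower than in NK cells (-2.18, SE 0.49, adjusted p = 0.00424). Cxcl9, which draws activated T cells, was at 253 and 332 in CD11b cDCs and 2965 and 3500.4 in CD8α cDCs (log2 difference -3.47, SE 0.21, adjusted p = 8.49e-07). Of the chemoattractant receptors, Ackr1, a decoy chemokine receptor, at 126 and 193 against 9.77 to 35.3 (median 22.8, gap 2.55, SE 0.33, adjusted p = 0.000483), and Fpr2, a formyl peptide receptor, at 59.7 and 85.1 against 1.65 to 20.1 (median 10.7, gap 1.83, SE 0.16, adjusted p = 4.56e-05), were highest. Xcr1, the XCL1 receptor of CD8α cDCs, was at 22.04 and 6.68 in CD11b cDCs and 673 and 633 in CD8α cDCs. Gpr183, the oxysterol receptor that places this subset in the spleen, was at 1254 and 1005 in CD11b cDCs and 80.8 and 63.4 in CD8α cDCs (log2 difference 3.97, SE 0.38, adjusted p = 2.14e-05) but also at 1387, 744 and 676 in B cells.

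Interferon-stimulated genes respond to type I interferon and serve antiviral defence. Of 24 tested (30 listed), 4 were highest, beside 2.11% of all genes. Higher and lower members numbered 11 and 2 against pDCs, 14 and 0 against CD8α cDCs, 13 and 0 against NK cells, 11 and 0 against B cells and 9 and 1 against CD8 T cells. The list medians were 1.06, 1.93, 1.70, 1.35 and 1.08 in the same order. The highest were 3 genes of the IFITM cluster, whose products restrict viral entry, and Oas2, a sensor of double-stranded RNA. Ifitm1 was at 921 and 921 against 1.71 to 51.7 (median 16.4, gap 4.17, SE 0.39, adjusted p = 3.6e-05). Ifitm6 was at 1608 and 1866 with 249 and 276 in CD8α cDCs (gap 2.72, SE 0.22, adjusted p = 1.5e-05), and Ifitm3 at 3587 and 3737 with 816 and 832 in CD8α cDCs and 878 and 671 in pDCs (gap 2.15, SE 0.36, adjusted p = 0.00408). Oas2 was at 390.4 and 379.8 against 5.54 to 114 (median 26.7, gap 1.77, SE 0.31, adjusted p = 0.00496). The call of Ifitm3 was lost without CD11b cDC replicate 2 or pDC replicate 2 (adjusted p between 0.0522 and 0.0561). The call of Oas2 was lost without CD11b cDC replicates 1 or 2 (adjusted p between 0.0557 and 0.0604). Against CD8α cDCs 0 of the 24 were lower by limma, with the adjusted or the unadjusted p. Irf7, the factor that drives type I interferon in pDCs, was lower than in pDCs (-1.40, SE 0.47, adjusted p = 0.0471). This difference of Irf7 was not called without CD8α cDC replicates 1 or 2, CD11b cDC replicates 1 or 2, pDC replicates 1 or 2, NK cell replicates 1 or 2 or CD8 T cell replicates 1 or 2 (adjusted p between 0.0729 and 0.21). Bst2, which encodes the antigen used to part the cells in the sort, was lower than in pDCs too (-4.89, SE 0.28, adjusted p = 2.25e-07).

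Notch signals and the adhesion molecule ESAM are linked to a part of the splenic CD11b cDCs. Esam was at 483 and 464 in CD11b cDCs and 1.30 to 65.7 (median 19.2) elsewhere (gap 2.92, SE 0.16, adjusted p = 8.02e-07), and the Notch ligand Jag1 at 125 and 131 against 0.26 to 27.00 (median 6.93, gap 2.38, SE 0.15, adjusted p = 2.03e-06). These were the 2 highest genes of 18 tested in that list, beside 2.11% of all genes. Jag1 passed the filter only through CD11b cDCs. Dtx1, a Notch target, was at 2311 and 2133 in CD11b cDCs, 17.3 and 34.3 in CD8α cDCs and 27.8 and 34.6 in pDCs (log2 difference 6.41, SE 0.54, adjusted p = 9.27e-06 against CD8α cDCs). B cells held 1953, 503 and 519 and CD8 T cells 1451 and 1605. Hes1, another target, was at 499 and 483 in CD11b cDCs and 259 and 241 in CD8α cDCs (0.97, SE 0.83, adjusted p = 0.494, not called), and this difference was called without B cell replicate 1 (adjusted p = 0.0149) and with the DC arrays alone (adjusted p = 0.00291). The differences of Notch2 from CD8α cDCs (-0.25, SE 0.18, adjusted p = 0.396) and from pDCs (0.33, SE 0.18, adjusted p = 0.196) were not called. Notch4 was lower than in CD8α cDCs (-3.58, SE 0.21, adjusted p = 6.51e-07). Cd4, which marks a share of the subset, was at 504 and 458 in CD11b cDCs, 11.98 and 5.85 in CD8α cDCs and 1526 and 1287 in pDCs. Of 22 adhesion genes tested, F11r, the junctional molecule JAM-A, was highest beside Esam, at 89.2 and 126 against 2.52 to 20.2 (median 7.71, gap 2.40, SE 0.17, adjusted p = 5.29e-06). The share of all genes is again 2.11%, and F11r too passed the filter only through CD11b cDCs. Itgae, the CD103 chain (-5.47, SE 0.22, adjusted p = 3.68e-08), and Cadm1, which binds CRTAM on T cells (-4.67, SE 0.23, adjusted p = 1.31e-07), were lower than in CD8α cDCs.

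MHC class II genes load and carry peptides for CD4 T cells. Of 23 tested 0 were highest by the rule (limma) and 1 with the unadjusted p. Class II members higher and lower in CD11b cDCs numbered 5 and 3 against pDCs, 4 and 0 against CD8α cDCs, 18 and 2 against NK cells, 11 and 0 against B cells and 20 and 3 against CD8 T cells. With the unadjusted p, 2 were lower than in CD8α cDCs. H2-Ab1, a beta chain, was at 9784 and 10198 in CD11b cDCs, 10085 and 11603 in CD8α cDCs and 9795, 8605 and 8191 in B cells. The list median was 0.45 against CD8α cDCs and 0.37 against pDCs. H2-DMb2, a peptide editor, was among the members higher than in CD8α cDCs (log2 difference 1.33, SE 0.34, adjusted p = 0.0194). This difference of H2-DMb2 was not called without CD8α cDC replicates 1 or 2 or CD11b cDC replicates 1 or 2 (adjusted p between 0.0889 and 0.11). Ctsl, a lysosomal protease, was lower than in pDCs, at 109 and 97.8 against 6581 and 5905 (log2 difference -5.92, SE 0.21, adjusted p = 1.08e-08). Class I genes load peptides for CD8 T cells. Of 18 tested 0 were higher than in CD8α cDCs by limma, with the adjusted or the unadjusted p, and 5 were lower, with a list median of -0.63. Pdia3, which folds class I chains, was at 818 and 1083 against 2220.1 and 2709 in CD8α cDCs (log2 difference -1.38, SE 0.31, adjusted p = 0.00858). This difference of Pdia3 was not called without CD8α cDC replicate 2 or CD11b cDC replicate 1 (adjusted p between 0.0796 and 0.0888). Tap1, a peptide transporter, was at 1082 and 1185 against 2198 and 2712 (log2 difference -1.11, SE 0.38, adjusted p = 0.0663, not called), a difference that was called with either NK cell array left out (adjusted p = 0.00669 each) and with the DC arrays alone (adjusted p = 0.0123).

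Cell division genes were higher in CD11b cDCs than in the other populations except CD8α cDCs. All 23 tested were higher in CD11b cDCs than in pDCs and in CD8 T cells, 22 than in B cells and 19 than in NK cells, with list medians of 2.16, 2.32, 1.92 and 1.38. Against CD8α cDCs 0 were higher by limma, with the adjusted or the unadjusted p, and 2 were lower, with a median of -0.25. Mki67, a marker of cycling cells, was at 1391 and 1438 in CD11b cDCs, 1927 and 1767 in CD8α cDCs and 292 and 304 in pDCs. Top2a, which untangles replicated DNA, was at 1007 and 1080.2 in CD11b cDCs, 1166 and 1156 in CD8α cDCs and 209 and 165 in pDCs. The 2 members lower than in CD8α cDCs were Ube2c (log2 difference -1.22, SE 0.37, adjusted p = 0.0435) and Cdc20 (log2 difference -1.27, SE 0.18, adjusted p = 0.000523), both of mitotic exit. This difference of Ube2c was not called without CD8α cDC replicates 1 or 2, CD11b cDC replicates 1 or 2, pDC replicates 1 or 2 or CD8 T cell replicates 1 or 2 (adjusted p between 0.0506 and 0.223). In these bulk samples, more dividing cells and more of these transcripts in each cell cannot be told apart.

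**Figure D4:**
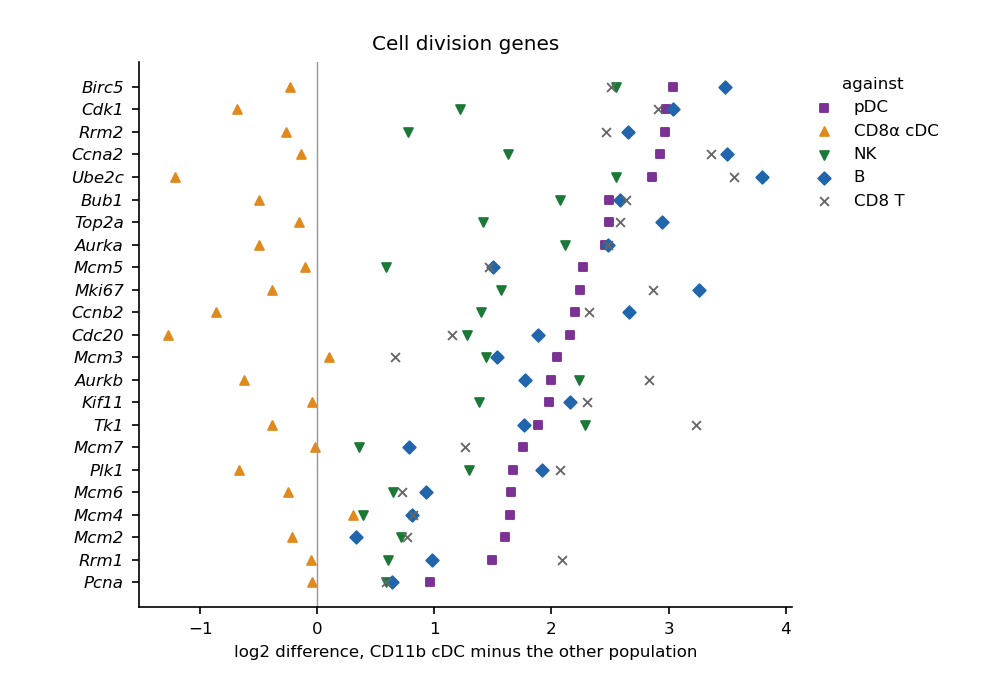
Log2 differences of 23 cell division genes, as CD11b cDCs minus each other population, with 1 point for each comparison and a line at 0. Points against pDCs, NK, B and CD8 T cells lie right of 0, whereas those against CD8α cDCs lie mostly left of 0, with a median of -0.25.

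Other groups of cell-biological genes also held highest members, beside 2.11% of all genes. Of 24 actin and motility genes, Fscn1, or fascin, which bundles actin in DC processes, was at 2515 and 2078 with 796 and 1208 in CD8α cDCs (gap 1.22, SE 0.29, adjusted p = 0.036). Myo9b, a myosin with a RhoGAP domain, was at 1694 and 1848 (gap 0.92, SE 0.19, adjusted p = 0.0144), Elmo1 at 699 and 691 (gap 1.06, SE 0.23, adjusted p = 0.0235) and Dock4 at 77.2 and 71.97 (gap 1.75, SE 0.16, adjusted p = 3.64e-05), the latter pair being activators of Rac GTPases. The call of Fscn1 was lost without CD8α cDC replicate 1, CD11b cDC replicates 1 or 2, NK cell replicates 1 or 2 or CD8 T cell replicates 1 or 2 (adjusted p between 0.0786 and 0.381). The call of Myo9b was lost without CD8α cDC replicates 1 or 2 or CD11b cDC replicates 1 or 2 (adjusted p between 0.0564 and 0.134). The call of Elmo1 was lost without CD8α cDC replicate 2, CD11b cDC replicates 1 or 2 or NK cell replicates 1 or 2 (adjusted p between 0.0672 and 0.189). Of 23 genes of glycolysis and lipid metabolism, Pygl, Eno3, Fabp5 and Lpl were highest, beside 2.11% of all genes. Pygl and Lpl passed the filter only through CD11b cDCs. Eno3, a muscle enolase, was at 1198 and 1285 against 68.7 to 242 (median 105, gap 2.48, SE 0.31, adjusted p = 0.00037), Fabp5, a fatty acid carrier, at 2314 and 2067 against 7.96 to 292 (median 120.5, gap 2.93, SE 0.43, adjusted p = 0.00147) and Lpl, lipoprotein lipase, at 53.2 and 103 against 0.66 to 14.2 (median 1.42, gap 1.89, SE 0.23, adjusted p = 0.000605). Of 15 phagocyte oxidase and granule genes, S100a4 and Pram1 were highest. Dock4 and Pram1 also passed the filter only through CD11b cDCs. Lyz1 and Lyz2 are near-identical lysozymes of phagocytes whose probe sets may each read both. Lyz1 was at 5047 and 5274 in CD11b cDCs and 3238 and 3110.2 in CD8α cDCs (gap 0.70, SE 1.03, adjusted p = 1). Lyz2 was at 1757 and 2499.6 in CD11b cDCs and 1029 and 1045 in CD8α cDCs (gap 1.01, SE 0.75, adjusted p = 1), and neither was highest.

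**Figure D5:**
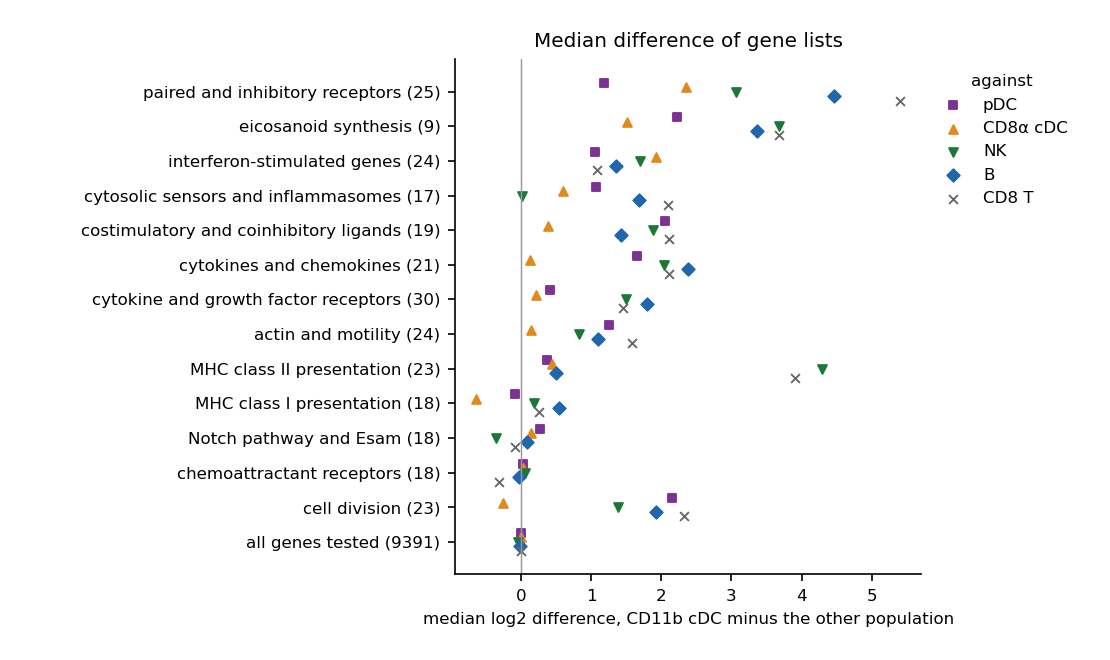
Median log2 difference of 13 gene lists and of all genes tested, as CD11b cDCs minus the other population, with 1 point for each of the 5 comparisons and the number of genes tested in brackets. Of these lists the paired receptors lie furthest right (5.41 against CD8 T cells), cell division genes lie right except against CD8α cDCs (-0.25), and all genes tested lie between -0.04 and 0.

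Markers of macrophages and monocytes were partly present. Of 27 listed, 25 were on the array and 13 were tested. Adgre1, C1qa, C1qb, C1qc and Ace were highest in CD11b cDCs, beside 2.11% of all genes. C1qa, C1qb, C1qc and Ace passed the filter only through CD11b cDCs. The C1q genes encode the first component of complement. C1qa was at 63.01 and 58.3, C1qb at 136 and 110.5 and C1qc at 88.9 and 78.5 in CD11b cDCs, and no other array exceeded 18.2, 34.1 and 9.03. Ace, angiotensin-converting enzyme, was at 67.7 and 104 against 1.49 to 20.4 (median 3.24) on 1 probe set. Another Ace probe set, at 34.7 and 34.98 in CD11b cDCs, was not higher (gap -0.017). Mean signals exceeded 20 for 14 of the 25 in CD11b cDCs, the most of any population, against 11 in pDCs, 9 in CD8α cDCs, 9 in NK cells, 6 in B cells and 4 in CD8 T cells. Treml4, a receptor of myeloid cells, was at 799.9 and 898 in CD11b cDCs and 2911 and 3247 in CD8α cDCs. Spic, the factor of red pulp macrophages, was at 52.5 and 68.2, Cd14 at 54.1 and 83.7, Slc40a1, the iron exporter, at 44.9 and 36.1, Vcam1 at 75.9 and 84.2, Ccr2, the receptor of monocytes, at 76.3 and 79.3, Fn1 at 28.02 and 27.5 and Axl at 21.4 and 19.7. Below 20 on both CD11b cDC arrays were Marco, Siglec1, Vsig4, Cd5l, Cd163, Chil3, Fcgr1, F13a1 and Trem1, whereas Mertk (8.99 and 21.2) and Hmox1 (20.4 and 18.3) lay on either side of it. The summed signal of the 25 genes was 6468 and 6475 on the CD11b cDC arrays, 5993 and 6291 in CD8α cDCs, 1304 and 1587 in pDCs, 3060.4 and 3215 in NK cells and at most 1778 in B and CD8 T cells. Nr4a1, an early response factor, gave 3616 and 3269 of the CD11b cDC sums. The part of macrophages or monocytes in the genes named here, such as Adgre1, Csf1r, Mmp12 and C1qb, was not tested. In bulk samples, a few cells with much of a transcript and many cells with little cannot be told apart.

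Markers of the other sorted populations were in part present as well, and each list had a smaller sum in CD11b cDCs than in its own population. Of 13 markers of CD8α cDCs 8 had means above 20 in CD11b cDCs, and the sum of the 13 was 7022 and 7242, against at least 23402 in CD8α cDCs. Most of it came from Batf3, given above, and Wdfy4, at 5441 and 5130.2 in CD11b cDCs and 7379.7 and 7652 in CD8α cDCs. Of 13 markers of pDCs 7 were above 20, with sums of 1197 and 1291 against at least 37588 in pDCs, and Spib, a factor of pDCs and B cells, was the brightest (496 and 534). Of 13 markers of B cells 6 were above 20 in CD11b cDCs, with sums of 2872 and 3017 against at least 26799 in B cells. Cd22, an inhibitory receptor, was at 2180.1 and 2035 in CD11b cDCs, which overlapped the B cells at 5210.0, 2079 and 2423. Bank1 was at 319 and 312, Cd79b at 181 and 222, Ms4a1 at 162 and 122, Blk at 109.5 and 97.2 and Cr2 at 35.8 and 32.3, and Cd79a, Pax5, Ebf1, Pou2af1, Fcrla, Fcer2a and Vpreb3 were below 20 on both arrays. Of 13 markers of NK cells 5 were above 20, with sums of 2575 and 2833 against at least 59856 in NK cells. These were Klrd1, a lectin-like receptor, at 2339 and 2135, Tbx21, the factor T-bet, at 273 and 264, Klrk1 at 50.5 and 76.1, Klre1 at 41.2 and 28.1 and Gzma at 64.7 and 1.82, whereas Ncr1, Eomes, Gzmb, Prf1, Il2rb, Xcl1, Cd160 and Klra8 were below 20 on both arrays. In each of the last 3 lists 1 marker was above 20. Of 12 markers of T cells it was Cd5 (158 and 147), of 17 of granulocytes Csf3r and of 12 of erythroid cells and platelets Car2 (143 and 211), with list sums of 192 and 204, 146 and 167 and 247 and 297. The part of other cells in these values was not tested.

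Only 6 genes were lowest in CD11b cDCs. Gpr171, a G protein-coupled receptor, had the largest gap, with 55.4 and 41.5 on the CD11b cDC arrays and 489 to 1759.7 (median 999.8) on the others (gap -3.46, SE 0.25, adjusted p = 0.000113). Itm2a, a membrane protein of lymphocyte activation, was at 4.48 and 7.61 against 114 to 1393 (median 203, gap -2.67, SE 0.18, adjusted p = 8.2e-05), and Dennd2d, a regulator of Rab GTPases, at 12.8 and 25.4 against 88.1 to 567 (median 189.5, gap -2.21, SE 0.32, adjusted p = 0.0235). Aff3, a nuclear factor of lymphoid cells, was at 24.6 and 39.7 with 128 and 155 in CD8α cDCs as the next (gap -2.17, SE 0.23, adjusted p = 0.00355). Klhl6, an adaptor of ubiquitin ligases, was at 213 and 234 (gap -1.71, SE 0.21, adjusted p = 0.0074), and Sptbn1, a spectrin of the membrane skeleton, at 216 and 269 (gap -1.45, SE 0.18, adjusted p = 0.00741). Both CD11b cDC arrays lay below all 11 others in all 6 genes, as they did in 320 genes (3.41%) without the test. The call of Dennd2d was lost without CD8α cDC replicates 1 or 2, CD11b cDC replicates 1 or 2, pDC replicates 1 or 2, NK cell replicates 1 or 2 or CD8 T cell replicates 1 or 2 (adjusted p between 0.0844 and 0.584). The call of Aff3 was lost without CD8α cDC replicate 2 (adjusted p = 0.0808). The call of Klhl6 was lost without CD8α cDC replicates 1 or 2 or CD11b cDC replicates 1 or 2 (adjusted p between 0.0654 and 0.142). The call of Sptbn1 was lost without CD8α cDC replicates 1 or 2, CD11b cDC replicate 1 or pDC replicate 1 (adjusted p between 0.0808 and 0.142). The number of lowest genes was 3 without CD11b cDC replicate 1 or CD8α cDC replicate 1, 2 without CD8α cDC replicate 2 and 11 without B cell replicate 1.

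Against CD8α cDCs, the nearest population, the largest called differences upward were Dtx1 (6.41), Clec4a3 (5.93), Rtp4 (5.63), Sirpb1a (5.60), Sirpa (5.32) and Ptger3 (5.30). Rtp4, an interferon-inducible chaperone of receptors, was at 977 and 1001 in CD11b cDCs and 13.1 and 12.97 in CD8α cDCs. Downward they were Plpp1 (-5.79), a lipid phosphatase, Pdia5 (-5.61), a protein disulfide isomerase, Itgae (-5.47), Rab7b (-5.45), a GTPase of late endosomes, Ttc39a (-5.40) and Gcsam (-5.31). Plpp1 was at 19.05 and 18.01 in CD11b cDCs and 1089.8 and 1124 in CD8α cDCs. The adjusted p of these 12 genes lay between 9.66e-09 and 6.75e-05, with SEs of 0.14 to 0.62. Arrays of the 2 populations that did not overlap were a condition for choosing these genes.

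Against pDCs, Ffar2 (7.17), Asb2 (6.22), Dtx1 (6.16), Tgfbi (6.15), Ccl5 (6.11) and Sirpb1a (5.95) had the largest differences upward in CD11b cDCs. Asb2, a substrate receptor of ubiquitin ligases, was at 4197 and 4541 in CD11b cDCs and 47.7 and 71.9 in pDCs, and Tgfbi, a matrix protein induced by TGF-β, was at 3213 and 3364 in CD11b cDCs and 65.3 and 32.9 in pDCs. The lowest were D13Ertd608e (-8.53), Klk1 (-8.29), a kallikrein protease, Ly6d (-8.12), Atp1b1 (-7.43), a sodium pump subunit, Ccr9 (-7.40), the gut homing receptor, and Siglech (-7.37). Klk1 was at 11.7 and 9.80 in CD11b cDCs and 6929.5 and 5688 in pDCs. The adjusted p of the 12 lay between 2.14e-10 and 0.000113, with SEs of 0.15 to 0.90.

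Against NK cells, the class II genes H2-Ab1 (8.29) and H2-Eb1 (7.78), Plbd1 (8.08), a phospholipase-like protein, Wdfy4 (8.05), a factor of antigen presentation, Lyz1 (8.01) and the protease Ctsh (7.76) were the highest. Gzma (-9.01), a granzyme, Klra8 (-8.96), a Ly49 receptor, Nkg7 (-8.50) and Ctsw (-8.17), of cytotoxic granules, Gimap4 (-8.13), a GTPase of lymphocytes, and Jakmip1 (-7.92) were the lowest. Gzma was at 64.7 and 1.82 in CD11b cDCs and 18718 and 18346 in NK cells. The adjusted p of the 12 lay between 6.56e-11 and 9.47e-05, with SEs of 0.14 to 1.03. The part of the higher GAPDH ratios of the NK cell arrays in these values was not tested.

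Against B cells, Tgm2 (7.78), Itgax (7.66), the CD11c chain, S100a4 (7.63), Marveld1 (7.59), Ccnd1 (7.52), a cyclin, and Tgfbi (7.36) were the highest. Ighv14-2 (-8.40) and Igkv8-30 (-7.99), whose probe sets may read related immunoglobulin genes, Fcmr (-8.07), the IgM receptor, Scd1 (-7.98), a desaturase, Ly6d (-7.35) and Pou2af1 (-7.32), a coactivator of B cells, were the lowest. Scd1 was at 2.05 and 7.54 in CD11b cDCs and 6487, 5121 and 3856 in B cells. The adjusted p of the 12 lay between 4.18e-10 and 7.35e-07, with SEs of 0.15 to 0.52.

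Against CD8 T cells, Tgm2 (8.19), the class II chain H2-Aa (8.16), Wdfy4 (8.05), Plbd1 (8.02), Ffar2 (7.81) and Asb2 (7.77) were the highest. Trbv1 (-8.34), a T cell receptor segment, Ets1 (-7.44), a lymphocyte transcription factor, Gimap8 (-7.35), Thy1 (-7.29), Cd3d (-7.23) and Nkg7 (-7.14) were the lowest. Ets1 was at 25.4 and 2.22 in CD11b cDCs and 4022 and 3838 in CD8 T cells. The adjusted p of the 12 lay between 1.21e-09 and 3.87e-05, with SEs of 0.17 to 0.90. In all 5 comparisons the 12 genes were taken only from those whose arrays did not overlap between the 2 populations.

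The study picked a list of genes that mouse CD11b cDCs share with the human BDCA1 cDC subset, and it did so partly on these arrays, so its counts here are not independent evidence of direction. Of 70 listed genes 62 were tested and 32 were highest in CD11b cDCs, against 2.11% of all genes. Higher and lower members numbered 55 and 0 against pDCs, 54 and 0 against CD8α cDCs, 46 and 8 against NK cells, 50 and 2 against B cells and 49 and 6 against CD8 T cells, with medians of 2.06, 1.99, 2.31, 2.26 and 2.49. Some were shared with other cells. Cst7, an inhibitor of cathepsins, was at 75.6 and 80.3 in CD11b cDCs and 1492 and 1714 in NK cells. Car2, a carbonic anhydrase, was at 143 and 211 in CD11b cDCs and 1425 and 1995 in NK cells. Of the members called highest and not yet described, Lst1, a small leukocyte protein, was at 2424 and 3199 with a mean of 544 ± 12.5 (SD, n = 2) in CD8α cDCs (gap 2.36, SE 0.32, adjusted p = 0.000781), and Papss2, which makes the sulfate donor, at 224 and 193 with 42.2 and 44.9 in CD8α cDCs (gap 2.25, SE 0.15, adjusted p = 3.03e-06).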

How the data were processed

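RNA was amplified in 2 rounds and hybridised to 1-colour Affymetrix mouse genome arrays. The intensities of 45101 probe sets were summarised and scaled by the authors to a common trimmed mean with MAS5 before they were deposited. They are linear, with no depth to state, and the 13 arrays limit the precision. Signals were floored at 20 and log2 transformed. Probe sets with 1 gene (34958) and at least 50 in all replicates of a population were kept, 1 for each gene, by preference that of the study (471 genes) and otherwise the brightest. Another 9211 probe sets had no gene and 932 several. Population means were fitted with limma (3.58.1, R 4.3.3) over all 13 arrays, with 7 residual degrees of freedom and Benjamini-Hochberg adjustment, two-sided for pairs and one-sided for highest and lowest genes. Motifs were sought in RefSeq promoters.

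The subset and the gene lists were chosen with earlier results of these data known. Genes were named by rule: the 20 largest gaps, the lowest genes, the 6 largest differences each way in each comparison with arrays apart, the given markers, the genes of the sort, highest members of each list with up to 4 further members, and genes the study names. Some further list members were chosen after their values were seen.

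Alternatives covered normalization, floor, filter, probe set choice, variance model, blocks, samples and each array left out. Leaving out the NK cell arrays, or the 3 arrays that go against their sex labels, was chosen after seeing the data. Protein sequences were not used here. The fits were tested on simulated data.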

Additional observations from a re-analysis of the deposited data

How the results depend on the processing

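Of the 160 counts of genes called under alternatives other than leaving out 1 array, 158 were within 1.5 times the reported ones. Without the floor, 532 genes were lower than in CD8α cDCs and 40 were highest; the cause was not tested. With 1 array left out, 143 of 156 counts were within 1.5 times. The genes higher than in CD8α cDCs ranged from 618 to 1274, the genes lower from 476 to 1143, the genes lower than in B cells from 1249 to 2250 and the lowest genes from 2 to 11. Of 204 single differences and gaps, 164 of 2652 values lost their call with 1 array left out and 142 of 2681 under other alternatives, whereas 10 and 20 gained one. Of 97 single gaps, 58 lost their call without the floor, among them Sirpb1a, Clec4a2, Tgm2, Mmp12 and Clec4n. With a floor of 50, C1qa, Fpr2, Lpl and Dennd2d lost theirs, and with quantile normalization Cd80, Pdcd1lg2, Tlr6 and Dennd2d. With a term for the set of sample names 9 lost theirs, among them Oas2, Csf3r and Ms4a7. Without the filter 11 did, with the replicate block 6 and without the arrays that go against their sex labels 9. Beside those given with the genes, calls were gained by Tlr7 (adjusted p = 0.00307) and Ifih1 (0.00158) with the replicate block, by Tap1 (0.0442) and Ifih1 (0.0292) with a trended robust variance, by Hes1 (0.0149), Il1b (0.0152), Sirpa (0.00534) and Ffar2 (0.00062) with a term for the set of sample names, by Sirpa with cyclic loess (0.0399), by Tap1 without the NK cell arrays (0.00669) and by Ifih1 without the arrays that go against their sex labels (0.0424). With a floor of 50, Cd300c2, Ffar2, Ifih1, Sirpa and Tnf were highest (0.000145 to 0.0174). The gap of Ace reversed to -0.017 without the filter, where another probe set stood for the gene. With quantile normalization 190 genes were highest, 185 of them among the 198, and with a floor of 50 there were 234, 183 of them shared. With scan day as a random block (consensus correlation -0.059) 200 were highest, 198 of them shared.

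The study sorted the duplicates of DCs and NK cells in independent experiments, but no label says that equal replicate numbers mark the same sort. Deviations of same-numbered arrays correlated between -0.21 and 0.19. With so few arrays in each population, these values cannot settle whether the arrays were paired. With the replicate block 186 genes were highest and 5 lowest, and 924 were higher and 772 lower than in CD8α cDCs. Scan day and chip lot cannot be told apart from lymphocyte identity, nor can sex by Xist and Eif2s3y for NK and CD8 T cells. Signals near background have no order.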

Other observations

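Over all 18207 probe sets that passed the filter, 312 were highest in CD11b cDCs, of which 31 had no gene and 7 several. The largest gap of these 38, 6.19 (adjusted p = 9.73e-07 from limma), was that of a probe set annotated to Sirpb1a, Sirpb1b and Sirpb1c together, with signals of 4537 and 4163 on the CD11b cDC arrays. A probe set of Clec4a2 and Clec4b1 followed with a gap of 5.56, at 1167 and 1451, and one of Cyp4f16 and Cyp4f37 with 3.99, at 1705 and 1717. The largest gap without a gene name was 3.66, at 494 and 292. Among the 198 genes, 55 had other probe sets that passed the filter, 84 in all. Of these 84 probe sets 58 were also highest, and 81 had a gap above 0. The 3 with a gap below 0 belonged to Aebp2, Ipo7 and Tmem131l.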
